A study of Mus musculus with 7 samples.

Results

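Retinoic acid, the active derivative of vitamin A, is made, removed and sensed by a small set of genes, and 10 of these were followed in the posterior second heart field (pSHF) of *Shh* mutant and wild-type mouse embryos. They were the synthesis genes *Aldh1a1*, *Aldh1a2* and *Aldh1a3*, the breakdown genes *Cyp26a1*, *Cyp26b1* and *Cyp26c1*, the receptors *Rara*, *Rarb* and *Rarg*, and the binding protein *Crabp1*. They were taken by gene symbol alone, with every probe that carries the symbol on the array. *Cyp26c1* had no probe, which left 9 genes and 14 probes of 21475 named genes and 34747 probes, and 12 of the 14 probes passed the filter on dim signals. No probe of these genes differed between the genotypes at an adjusted p under 0.05. The nearest to it were *Crabp1*, at 72.4% of the wild-type signal, and *Rara*, at 75.3%.

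Retinol is oxidized to retinal, and the retinal dehydrogenases of the Aldh1a family turn retinal into retinoic acid. Cytochromes of the Cyp26 family hydroxylate retinoic acid and so clear it from a tissue, while cellular binding proteins such as Crabp1 hold it in the cytoplasm. Inside the nucleus it binds the retinoic acid receptors, which sit with retinoid X receptors on direct repeats of a short half-site and exchange co-repressors for co-activators. In the early embryo *Aldh1a2* of the lateral and paraxial mesoderm is the main source of retinoic acid, and this signal is known for limiting the extent of the heart field and for patterning the posterior heart tube.

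*Shh* -/- and +/+ embryos came from superovulated *Shh* +/- females on a mixed background (written C56B/6 and CD-1 in the labels) mated with *Shh* +/- males. The pSHF was cut out at E9.5, with heart and neural tube removed by dissection and the foregut still attached. Tissue of several embryos of 1 genotype was pooled for each array, in a number that is not given. 4 mutant pools (1 to 4) and 3 wild-type pools (1, 3 and 4) were each hybridized to 1 single-colour Agilent array. Pools of the same number shared a slide whose first position always held mutant RNA, so that genotype and position cannot be told apart. No wild-type partner was on the slide of mutant pool 2, whose array was noted as having possibly leaked. The pools are separate samples, and p-values measure the spread between them only. In such bulk tissue fewer cells of a type and less RNA per cell cannot be told apart.

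Between 60% and 70.6% of the probes were well above background on each array, no spot was saturated, and 23127 probes of 14894 named genes were tested. The Hedgehog genes checked the labels. *Shh*, which encodes the missing ligand, was at 47.4% of wild type and *Gli1*, its transcriptional target, at 49.3%, with no overlap between the genotypes (limma adjusted p = 0.0653 and 0.0676). It is not given whether the *Shh* probe lies in the deleted sequence. The Hedgehog target *Hhip* fell to 14.1% (adjusted p = 0.00126). All 12 markers of the second heart field were well above background on every array. Their median log2 change was −0.10, with 6 lower, 6 higher and none called. All mutant pools were lower for *Osr1* (−0.88), *Foxf1a* (−0.80) and *Isl1* (−0.42), and higher for *Fgf10* (0.56) and *Gata6* (0.26). Over the array 8.35% of probes were separated in either direction. All 10 liver bud and all 9 foregut markers were well above background on every array too. The same held for all 9 cardiomyocyte markers, which were all higher on average in the mutants with none called (median log2 change 0.26), and whose summed signal was 243000 to 351000 in mutant and 195000 to 293000 in wild-type pools. Of 10 neural tube markers 7 were tested and 5 were well above background on every array, while *Sox1*, *Sox3* and *Nkx2-2* were not.

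The promoters of *Rarb* and *Cyp26a1* are shown because both genes are known to respond to retinoic acid, which makes their signals a readout of the pathway beside its enzymes. They were the only 2 of the 9 genes with a RefSeq promoter in the table used (14 promoters, none for *Aldh1a3*) in which a direct repeat of half-sites 5 bases apart, DR5, was found. The half-site AGGTCA was searched on both strands, with AGTTCA as well as GGGTCA or the variant GGTTCA allowed at either place. Capitals mark the match, which begins 53 bases before the start of *Rarb* and lies 32 bases before the start of *Cyp26a1* on the opposite strand. The windows are chr14:16575427-16575726 on the minus strand for *Rarb* and chr19:37697558-37697857 on the plus strand for *Cyp26a1*, in GRCm38.p6.
Rarb: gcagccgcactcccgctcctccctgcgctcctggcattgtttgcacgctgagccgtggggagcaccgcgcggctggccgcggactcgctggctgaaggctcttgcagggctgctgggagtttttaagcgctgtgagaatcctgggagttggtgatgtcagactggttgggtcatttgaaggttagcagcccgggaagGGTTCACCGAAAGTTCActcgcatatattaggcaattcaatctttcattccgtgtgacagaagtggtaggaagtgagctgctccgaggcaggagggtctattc
Cyp26a1: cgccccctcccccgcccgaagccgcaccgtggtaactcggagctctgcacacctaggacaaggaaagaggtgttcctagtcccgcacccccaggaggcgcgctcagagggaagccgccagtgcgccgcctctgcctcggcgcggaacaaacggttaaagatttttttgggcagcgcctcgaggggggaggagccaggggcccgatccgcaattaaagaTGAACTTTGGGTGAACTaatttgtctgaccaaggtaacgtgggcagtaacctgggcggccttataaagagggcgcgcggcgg
DR5 was found in 32 of 32851 mouse promoters of the same length (0.0974%), and in none of the 25 other pathway genes with a promoter. Repeats 2 bases apart (DR2, 0.268% of promoters) matched no promoter of these genes, nor did repeats 1 base apart (DR1, 0.222%), the latter matching *Bco1* among the other pathway genes. The GLI motif TGGGTGGTC, searched on both strands and held by 0.253% of promoters, was in none of them. A match is a description of the letters in this window and not a measured binding site.

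For the synthesis genes, the question was whether the source of retinoic acid differed without *Shh*. *Aldh1a2*, the retinal dehydrogenase of embryonic mesoderm, gave a signal of 13.62, 13.42, 13.20 and 13.31 in mutant pools 1 to 4 and 13.79, 13.26 and 13.32 in wild-type pools 1, 3 and 4, as log2 of the normalized signal. The groups overlapped, and the highest and lowest values of all pools were those of wild-type pool 1 and mutant pool 3. The mutant mean of 13.39 ± 0.18 (SD, n = 4) stood against 13.46 ± 0.29 (SD, n = 3), a log2 change of −0.07 with an SE of 0.16 (limma adjusted p = 1). The 95% confidence interval of the change ran from 73.9% to 123% of wild type. Without wild-type pool 1 the change turned to 0.09. *Wt1* and 5 other markers of the proepicardium, a tissue that also makes retinoic acid, were all higher on average in the mutants (median log2 change 0.51, none called). Their summed signal was 12500 to 16900 in mutant and 9840 to 12500 in wild-type pools, and its part in the *Aldh1a2* signal was not tested.

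*Aldh1a1*, a second retinal dehydrogenase, varied more between pools. It measured 9.18, 8.69, 9.71 and 9.18 in mutant pools 1 to 4 and 10.31, 9.28 and 9.33 in wild-type pools 1, 3 and 4. Wild-type pool 1 stood well above the rest and mutant pool 3 came next, so the groups overlapped. The log2 change was −0.45 with an SE of 0.30, or 73.1% of wild type (45.9% to 116%; adjusted p = 0.94). Without wild-type pool 1 it was −0.12, and on the slide of pools 3 the mutant pool was the higher by 0.42.

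*Aldh1a3*, the third enzyme of the family, was close to background. Its first probe was well above background in 3 of 4 mutant and 3 of 3 wild-type pools, with 5.10, 4.87, 5.61 and 5.20 in the mutant and 5.34, 6.03 and 5.52 in the wild-type pools. Mutant pool 3 lay above both wild-type pools 1 and 4, and the other 3 mutant pools lay below all wild-type pools. The log2 change was −0.44 with an SE of 0.21, or 73.8% of wild type (53% to 103%; adjusted p = 0.72). The size of this difference depended on how the background was corrected, at −0.05 with the local background and −0.18 with quantile normalization. A second *Aldh1a3* probe was well above background on no array and was not tested.

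All 3 synthesis genes thus had a lower mean in the mutants, with a median log2 change of −0.44, against 0.02 over all 23127 probes tested, of which 10282 were lower. None was called, and none had an unadjusted p under 0.05. The median is the value of the dim *Aldh1a3* probe, which passed the filter through the wild-type pools. The median over the 3 genes was −0.06 with the local background, −0.18 with quantile normalization and −0.25 without background correction. Leaving out wild-type pool 1 gave −0.12 with 2 of the 3 genes lower, and leaving out wild-type pool 3 or mutant pool 2 gave −0.24 or −0.29. Averaged over the 3 genes, the distance from the wild-type mean was −0.28, −0.59, −0.07 and −0.35 in mutant pools 1 to 4 and 0.24, −0.05 and −0.18 in wild-type pools 1, 3 and 4. Mutant pool 3 lay among the wild-type pools, and the lowest value was that of mutant pool 2. Without this pool, noted as possibly leaked, the log2 change was −0.29 for *Aldh1a1*, −0.08 for *Aldh1a2* and −0.33 for *Aldh1a3*.

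**Figure D1:**
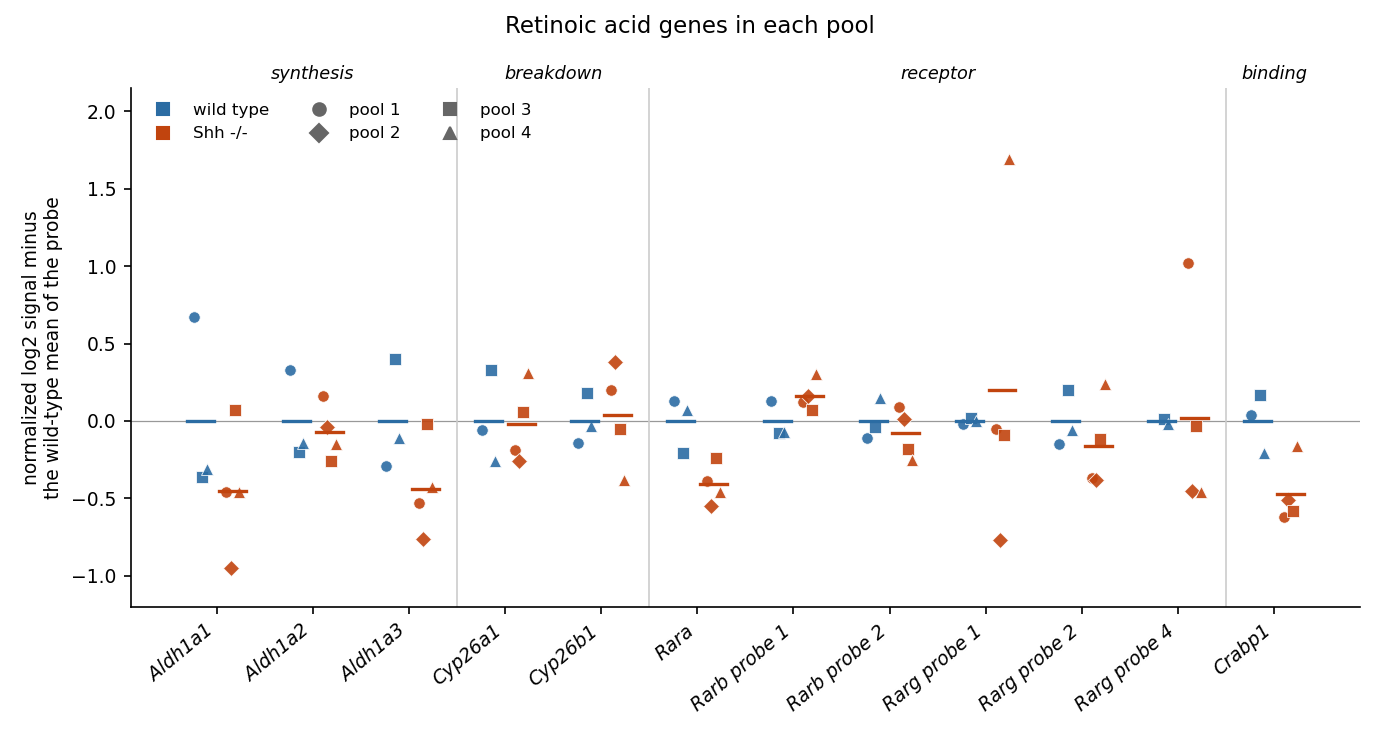
Normalized log2 signal of each tested probe in each pool, as the distance from the probe's wild-type mean, with probes along the horizontal axis in order of role. Each marker is 1 pool (orange, *Shh* -/-, n = 4, and blue, wild type, n = 3), its shape gives the pool number, and short bars are group means. *Rara* is the probe whose groups do not overlap, and mutant pool 4 stands 1.69 above its slide partner at *Rarg* probe 1.

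The breakdown genes showed the least difference in mean between the genotypes. *Cyp26a1*, the main retinoic acid hydroxylase of the early embryo and itself induced by retinoic acid, carries the DR5 shown above. Its signal was 7.82, 7.75, 8.07 and 8.32 in mutant pools 1 to 4 and 7.95, 8.34 and 7.75 in wild-type pools 1, 3 and 4. The 2 groups covered almost the same range. The log2 change was −0.02 with an SE of 0.19, or 98.4% of wild type, and its interval of 73.5% to 132% included both lower and higher signals (adjusted p = 1).

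*Cyp26b1*, the hydroxylase best known from hindbrain, limb and gonad, measured 11.89, 12.07, 11.64 and 11.31 in the mutant and 11.55, 11.87 and 11.66 in the wild-type pools. Mutant pools held both the highest and the lowest value. The log2 change of 0.03 had an SE of 0.18, or 102% of wild type (76.6% to 137%; adjusted p = 1), and its sign turned in 8 of the alternatives, those that leave out an array included. Within slides the difference was 0.34, −0.23 and −0.36 for pools 1, 3 and 4. The distance from the wild-type mean, averaged over both genes, was between −0.04 and 0.06 in the 4 mutant pools, and between −0.15 and 0.25 in the 3 wild-type pools. The narrow range in the mutants arose because both genes lay on opposite sides of 0 in each mutant pool. In mutant pools 1 to 4 *Cyp26a1* was at −0.19, −0.26, 0.05 and 0.31, and *Cyp26b1* at 0.20, 0.37, −0.06 and −0.39. No level of *Cyp26c1* was measured.

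Of the receptor probes with a value in every pool, that of *Rara* was the only one whose genotypes did not overlap. This broadly expressed receptor gave 5.20, 5.04, 5.35 and 5.13 in mutant pools 1 to 4 and 5.72, 5.38 and 5.66 in wild-type pools 1, 3 and 4. The 4 mutant values were all under the 3 wild-type values, though mutant pool 3 and wild-type pool 3 were only 0.04 apart. Across all probes with a value in every pool, 3.56% were separated in this direction, and 8.35% in either. The mean was 5.18 ± 0.13 (SD, n = 4) against 5.59 ± 0.18 (SD, n = 3), a log2 change of −0.41 with an SE of 0.13, or 75.3% of wild type (61.5% to 92.2%; limma adjusted p = 0.323). The probe was well above background on all 7 arrays but dim, and the change was −0.16 with quantile normalization, −0.23 without background correction and −0.04 with the local background. Adjusted p over the alternatives ran from 0.275 to 1.

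*Rarb*, a receptor gene that retinoic acid itself induces through the repeat shown above, was the most replicated measurement, since its first probe was printed in 10 spots on each array. The mean over spots was 13.22, 13.26, 13.17 and 13.40 in the mutant and 13.23, 13.02 and 13.03 in the wild-type pools. Wild-type pool 1 lay within the range of the mutants and wild-type pools 3 and 4 lay below all of them. The SD between spots of 1 array was 0.00941 to 0.0876, over 7 to 10 spots left after outlier spots were removed, and the SD between pools was 0.10 in mutants and 0.12 in wild types. The log2 change was 0.17 with an SE of 0.11, or 112% of wild type (94% to 134%; adjusted p = 0.962). The precision of the spots thus exceeded that of the pools, and only the pools count as replicates.

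A second *Rarb* probe, annotated to the receptor's isoform 4, gave 5.75, 5.67, 5.48 and 5.41 in the mutant and 5.55, 5.62 and 5.81 in the wild-type pools. The groups overlapped and the log2 change was −0.08 with an SE of 0.13 (77.3% to 116% of wild type; adjusted p = 1). Neither *Rarb* probe was called, and the signs of the 2 changes differed.

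**Figure D2:**
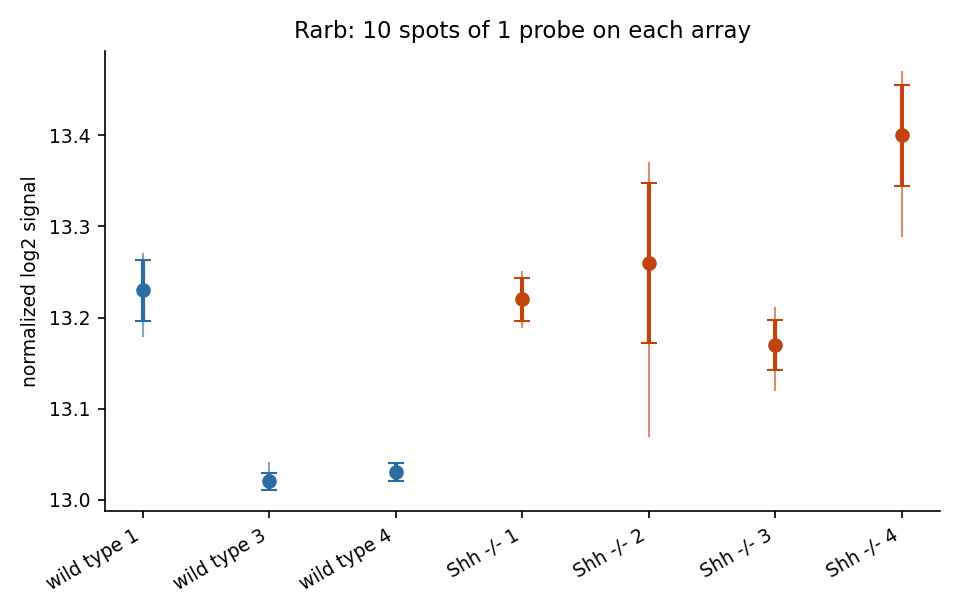
Normalized log2 signal of *Rarb* probe 1 on each array, with the mean (point), the SD (thick bar) and the range (thin line) over the spots used of the 10 printed. Spots of 1 array scatter less than pools of 1 genotype do, and wild-type pool 1 at 13.23 lies among the mutant pools at 13.17 to 13.40.

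*Rarg*, the receptor of early mesenchyme and later of skin and cartilage, had 4 probes that were all dim and did not move together. Probe 1, annotated to the 5′ end of isoform 3, gave 5.61, 4.89, 5.57 and 7.35 in the mutant and 5.64, 5.68 and 5.66 in the wild-type pools. Mutant pool 4 alone was high, and the wild-type pools agreed to within 0.04. Its log2 change of 0.20 had an SE of 0.48 (54.2% to 242% of wild type; adjusted p = 1), and it was −0.30 without mutant pool 4 and 0.52 without mutant pool 2. Probe 2 gave 5.39, 5.38, 5.64 and 6.00 against 5.61, 5.96 and 5.70, a change of −0.16 with an SE of 0.17 (68.4% to 118%; adjusted p = 1). Mutant pool 4 was again the highest of all pools, by 0.04 over wild-type pool 3. Probe 4 was well above background in 2 of 4 mutant pools. It gave 5.36, 3.89, 4.31 and 3.88 there and 4.35 and 4.32 in wild-type pools 3 and 4, its spot on wild-type array 1 having been dropped as an outlier. Its change of 0.02 had an SE of 0.39 and turned with the choice of processing. Probe 3 failed the filter on dim signals.

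Over the 6 tested receptor probes, 3 were lower and 3 higher in the mutants, with a median log2 change of −0.03 and a range of −0.41 to 0.20. *Rarg* probes 1 and 4 were among the higher ones. They were well above background in 3 and 2 of 4 mutant pools and passed the filter through the wild-type pools. Probe 1 turned to −0.30 without mutant pool 4, and probe 4 to −0.31 without mutant pool 1. None was called, and 1 (*Rara*) had an unadjusted p under 0.05, against 7.96% of all probes.

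*Crabp1*, which binds retinoic acid in the cytoplasm and is known from neural crest and hindbrain, gave 12.26, 12.37, 12.30 and 12.72 in mutant pools 1 to 4 and 12.92, 13.05 and 12.67 in wild-type pools 1, 3 and 4. Mutant pools 1, 2 and 3 lay below all wild-type pools, and mutant pool 4 lay 0.05 above wild-type pool 4 on the same slide. The mean was 12.41 ± 0.21 (SD, n = 4) against 12.88 ± 0.19 (SD, n = 3), a log2 change of −0.47 with an SE of 0.15, or 72.4% of wild type (57.2% to 91.5%; limma adjusted p = 0.337). Without the possibly leaked array it was −0.45, and over all alternatives it stayed between −1.06 and −0.38, with the lowest limma adjusted p at 0.147. The −1.06 came with the authors' values, whose median change over all probes was −0.54. With these set to 1 median per array the *Crabp1* change was −0.45. Of 9 neural crest markers 8 were lower on average in the mutants, with 1 called (*Dlx2*, log2 change −1.27, adjusted p = 0.0185), and their summed signal overlapped between mutant (14700 to 18100) and wild-type pools (15800 to 19500). All 7 tested neural tube markers were lower on average, with 1 called (*Zic1*, −1.92, adjusted p = 0.0442). Their median log2 change was −0.29, and their summed signal was 3020 to 4430 in mutant and 5700 to 6590 in wild-type pools. *Nkx6-1* (−0.85), the brightest of them in every pool, made up the largest part of this sum. *Pax6* and *Tubb3* were at −0.03 and −0.04. The part of these markers in the *Crabp1* and *Rara* differences was not tested.

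**Figure D3:**
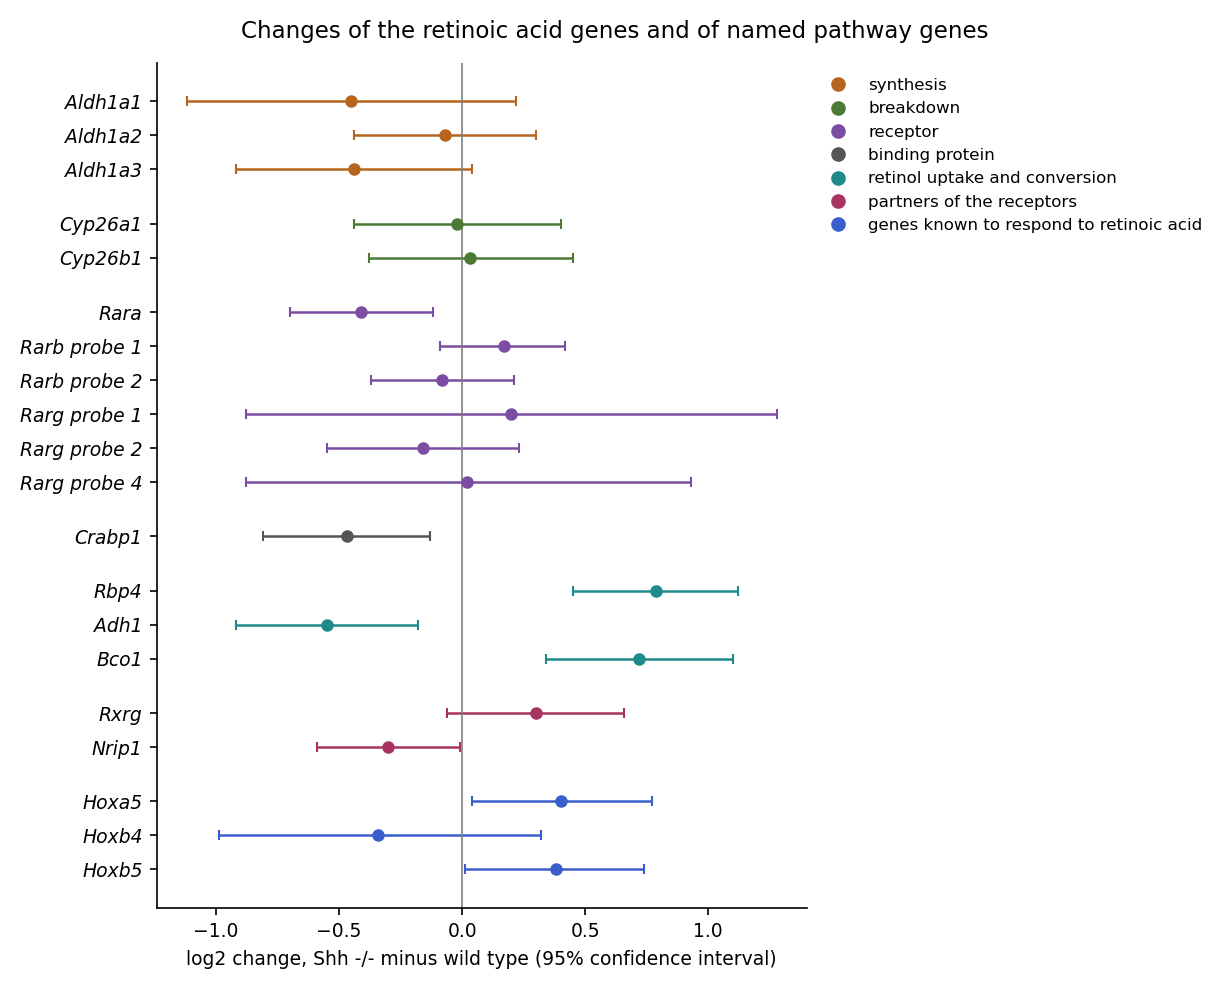
Log2 change between *Shh* -/- (n = 4) and wild-type pools (n = 3) for each tested probe of the retinoic acid genes and for the other pathway genes named by rule, with 95% confidence intervals from limma and colours by role. Among the retinoic acid genes only the intervals of *Rara* (−0.70 to −0.12) and *Crabp1* (−0.81 to −0.13) lie off 0.

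Set side by side, the 12 tested probes held 8 lower and 4 higher means, with a median log2 change of −0.08. None was called, against 129 of 23127 probes called over the array (0.558%, of which 0.294% lower and 0.264% higher), and 2 (*Rara* and *Crabp1*) had an unadjusted p under 0.05, against 7.96% of all probes. The SE of a change was 0.11 to 0.48 with a median of 0.17, and none of the changes reached 2-fold. They ran from −0.47 to 0.20, and in simulated data the fit recovered only 14% of log2 changes of 0.5. That none was called therefore does not show that these genes were unchanged. The interval included a 2-fold lower signal for *Aldh1a1* and a 2-fold higher one for *Rarg* probe 1 only.

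Pools that shared a slide were compared directly for the 11 probes with a value in each. *Aldh1a2*, *Aldh1a3* and *Rara* were lower in the mutant pool of all 3 slides, none was higher on all 3, and 8 were mixed. Over the array 11.4% of probes were lower and 16.2% higher in all 3. *Aldh1a2* differed by −0.16, −0.06 and −0.01 on slides 1, 3 and 4, which is less than the median SD within a genotype over all probes (0.19). *Aldh1a3* differed by −0.24, −0.42 and −0.33, and *Rara* by −0.52, −0.04 and −0.53. With the slide as a fixed block 11 probes of the array were called (0.0476%), and none of them was a retinoic acid gene.

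**Figure D4:**
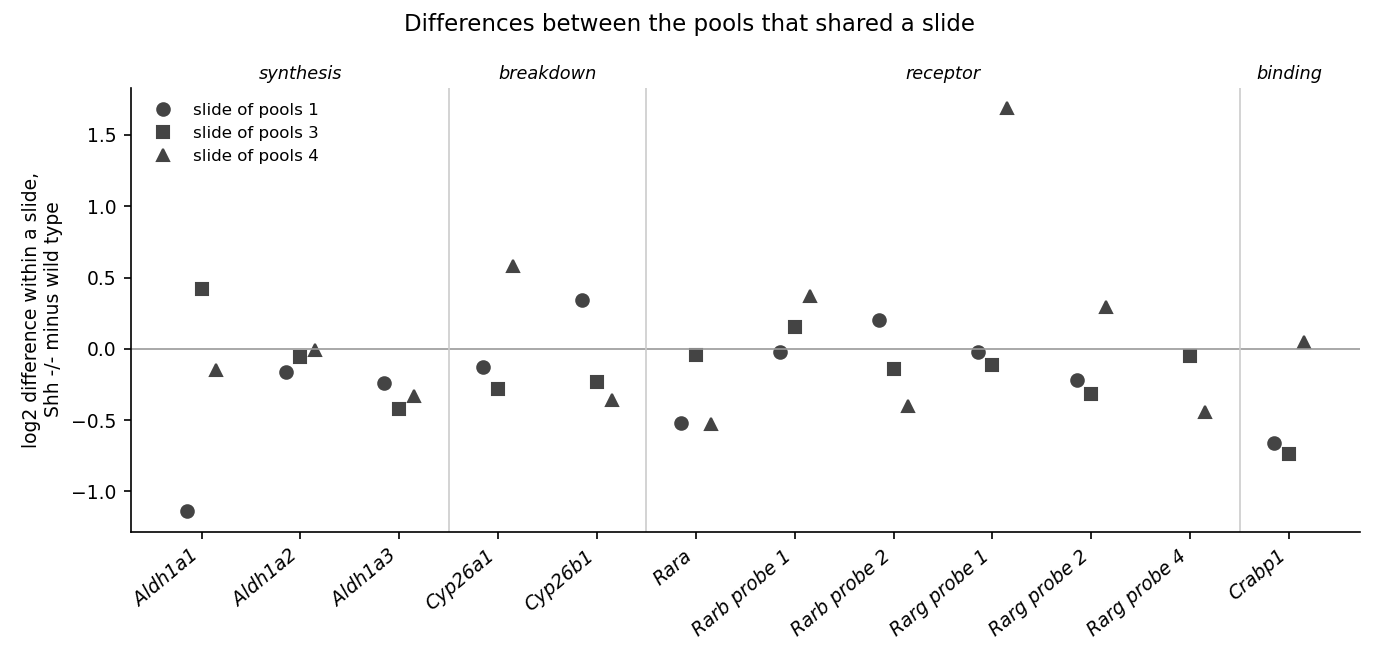
Log2 difference between the mutant and the wild-type pool of the same slide for each tested probe, with 1 marker for each of the 3 slides (2 for *Rarg* probe 4, which had no value in wild-type pool 1) and probes in order of role. *Aldh1a2*, *Aldh1a3* and *Rara* lie below 0 on all 3 slides, and *Crabp1* at −0.66, −0.74 and 0.05 does not.

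The steps before retinal were read from 12 genes of retinol uptake and conversion, of which 10 were tested. 6 were lower and 4 higher on average, none was called and 4 had an unadjusted p under 0.05, against 7.96% of all probes. *Rbp4*, the blood carrier of retinol that liver cells secrete, gave 15.32, 15.84, 15.67 and 15.83 in mutant pools and 14.79, 14.91 and 14.93 in wild-type pools. All mutant pools lay above all wild-type pools (4.79% of probes over the array did), with a log2 change of 0.79 and an SE of 0.15, or 172% of wild type (137% to 217%; limma adjusted p = 0.0653). Of 18 alternatives it passed the threshold in 2, with the slide as a random block (adjusted p = 0.047) and without mutant pool 1 (adjusted p = 0.0283). The adjusted p was 0.116 with the slide as a fixed block, 0.12 to 0.279 without any 1 of the other arrays, and 0.0636 to 1 over all alternatives that did not pass. All 10 liver bud markers were higher on average as well, 4 of them called, with a median log2 change of 0.83 and a summed signal of 152000 to 203000 in mutant and 137000 to 149000 in wild-type pools. Their part in the *Rbp4* difference was not tested.

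*Bco1*, listed on the array as *Bcmo1*, cleaves beta-carotene to retinal. It gave 6.71, 6.58, 7.16 and 6.91 in the mutant pools against 6.02, 5.96 and 6.38 in the wild-type pools. These groups did not overlap, as for 4.79% of probes over the array in this direction. The log2 change was 0.72 with an SE of 0.17 (limma adjusted p = 0.133). It was 0.49 with quantile normalization and 0.22 with the local background (adjusted p = 0.785). *Adh1*, an alcohol dehydrogenase that oxidizes retinol, gave 7.05, 7.10, 7.03 and 7.45 against 7.91, 7.40 and 7.83, with mutant pool 4 above wild-type pool 3. Its log2 change was −0.55 with an SE of 0.16 (adjusted p = 0.278). *Rdh10*, the retinol dehydrogenase that supplies retinal in the embryo, was chosen after its values were seen. It gave 8.18, 8.12, 8.04 and 8.24 against 8.61, 8.43 and 8.55, without overlap (3.56% of probes over the array in this direction). Its log2 change was −0.38 with an SE of 0.11 (limma adjusted p = 0.235). A second *Rdh10* probe was at −0.40.

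Among the 11 partners of the receptors, which are retinoid X receptors, other binding proteins, co-repressors and co-activators, 4 were lower and 7 higher with a median log2 change of 0.02. None was called and 1, the co-repressor *Nrip1*, had an unadjusted p under 0.05, against 7.96% of all probes. *Nrip1* had a log2 change of −0.30 (limma adjusted p = 0.587) with no overlap of the pools, as for 3.56% of probes over the array in this direction. Its other probes were at −0.09 and −0.21. The retinoid X receptor *Rxrg* was at 0.30 with overlap (adjusted p = 0.787). *Crabp2*, which carries retinoic acid to the receptors and is the relative of *Crabp1*, was at 84.6% of wild type (63.1% to 113%; adjusted p = 1).

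Genes known to respond to retinoic acid gave a readout of the pathway beside *Rarb* and *Cyp26a1*. Of 15 listed, 13 were tested, 7 lower and 6 higher, with a median log2 change of −0.02. None was called and 2, both *Hox* genes, had an unadjusted p under 0.05, against 7.96% of all probes. *Hoxa5* was at 0.40 (limma adjusted p = 0.523) and *Hoxb5* at 0.38 (adjusted p = 0.592). All mutant pools lay above all wild-type pools for *Hoxb5*, as for 4.79% of probes over the array. *Hoxb4* was at −0.34 (adjusted p = 1), at −0.07 without wild-type pool 4 and at −0.58 without wild-type pool 1.

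The genes whose signals followed each probe most closely over the 7 arrays, out of 23025 probes, are given as a description, with points that share slides and genotypes. For *Crabp1* they were *Mfsd2*, *Spata2* and *1500001A10Rik* (Pearson r = 0.981, 0.953 and 0.95). For *Rara* they were *St6galnac6*, *Edaradd* and *Meox2* (r = 0.991, 0.983 and 0.979), the last a somite gene with a log2 change of −1.05 (adjusted p = 0.345). Of 8 somite markers 7 were lower on average in the mutants and 2 were called (*Pax1*, −3.01, and *Pax9*, −2.54), with a summed signal of 5690 to 8300 in mutant and 7720 to 13300 in wild-type pools. *Foxc2* was at −0.07, and *Nkx3-2*, the marker that was higher, at 0.13. The part of these markers in the *Rara* difference was not tested. For *Aldh1a2* the closest genes were *Mfsd1*, *Dnajc16* and *Msrb2* (r = 0.977, 0.972 and 0.964), and for *Rarb* probe 1 *Wdr23*, *Angptl4* and *Prrg2* (r = 0.989, 0.984 and 0.981). The best match of the 11 probes ranged from r = 0.973 to 0.995.

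Probe positions below are those of the array annotation in mm9. The *Aldh1a2* probe covers 71143931 to 71143990 on chromosome 9 and the *Crabp1* probe 54616192 to 54616251 on the same chromosome, both on the plus strand. The *Aldh1a1* and *Cyp26a1* probes lie on chromosome 19 at 20717764 to 20717823 and 37775566 to 37775625, also on the plus strand. The *Rara* probe lies on chromosome 11 at 98831859 to 98831918 on the plus strand and *Rarb* probe 1 on chromosome 14 at 17263511 to 17263570 on the minus strand. *Cyp26b1* is read at 84521952 to 84522011 on chromosome 6 and *Aldh1a3* probe 1 at 73535785 to 73535844 on chromosome 7, both on the minus strand. *Rarg* probes 1 and 2 cover 102072411 to 102072470 and 102066309 to 102066368 on chromosome 15, on the minus strand. The exon or untranslated region under each probe was not analysed here.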

How the data were processed

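Gene expression was measured on 7 single-colour arrays of 43379 spots and 41174 probes. The authors' deposited scanner files hold the intensity of each spot and its local background, read with Feature Extraction 10.5.1.1 per the file headers. The authors' normalized data hold log2 values for 26255 probes, with array medians that differ and whose centring is not stated.

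Here, outlier spots (155 to 206 per array) were removed, and the mean signal of each spot was background-corrected by normexp from the 153 negative control spots and an offset of 50. Arrays were then put on 1 scale by variance stabilization (own script, trimming share 0.9, 7 iterations, 5 strata) and spots of a probe averaged. A probe was tested when it had a gene name, exceeded background clearly on all arrays of 1 genotype or both, and had at least 2 values per genotype. The filter keeps a probe that is bright in 1 genotype only. Genotypes were compared without pairing by limma 3.58.1 (R 4.3.3), with the Benjamini-Hochberg adjustment over all tested probes. Called means an adjusted p under 0.05. SAM, the methods' test, was not run. The number of arrays limits the precision.

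Arrays with the same number in the labels shared a slide. Deviations from the genotype means of same-slide arrays correlated at 0.192, 0.239 and 0.0329, against −0.22 to 0.187 for 9 pairs on different slides. Alternatives were 3 other background or normalization choices and the 75th percentile scaling, the authors' values, 2 other filters, outliers kept, the slide as fixed or random block, the methods' thresholds, and leaving out each array. A version of the authors' values in which every array has the same median was added after seeing the data. Genes, lists and tests were chosen with earlier results of these data known. Other pathway genes were named when called or among the 3 largest changes of their list, as were the 3 genes most like each probe. Single values of some listed genes are not reported here. The fit was tested on simulated data of 23025 probes, with 50 probes changed at each size. It recovered 14% of log2 changes of 0.5 and 88% of those of 1, with 6.88% false calls. Promoters are those of RefSeq (GRCm38.p6), 250 bases before to 50 after a start. Figures were drawn with matplotlib 3.10.9 (Python 3.11.15).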

Additional observations from a re-analysis of the deposited data

Results flagged for a closer look

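In 22 groups of 4 mutant pools checked for a pool far from the others, 3 held one by Dixon's ratio of the gap to the whole range, where chance gives about 1 in 20. At *Rarg* probe 3, which was not tested, mutant pool 2 stood at 6.05 against 3.79 to 4.11 in the other mutant pools (ratio 0.857). Mutant pool 4 was the highest at *Adh1*, with 7.45 (ratio 0.831), and at *Hoxb5*, with 12.03 (ratio 0.834). The 3 wild-type pools are too few for this check.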

How the results depend on the processing

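No retinoic acid gene was called under any of the alternatives, with the lowest adjusted p of each between 0.147 and 0.976. Over the whole array 129 probes were called, and 56 with the 75th percentile scaling, 33 without the filter, 5 with the local background, 5 at the methods' thresholds, and 0 with the authors' values by limma (28 at an unadjusted p under 0.05) or with these set to 1 median (1038). Leaving out 1 array gave 12 to 133 calls (12 without mutant pool 3, 14 without wild-type pool 1, 30 and 35 without wild-type pools 3 and 4, 37 and 73 without mutant pools 2 and 4). With the replicate block, the slide as a fixed term, 11 probes were called. Of the pathway lists 0 were called and 1 (*Rbp4*) with the random block. Leaving out 1 array gave 0 to 1.

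*Aldh1a1*, *Aldh1a3*, *Rara* and *Crabp1* kept a lower mean in all alternatives. Signs turned elsewhere, and the cause was not tested. With the authors' values, whose median change over all probes was −0.54, *Cyp26b1* was at −0.58, *Rarb* probe 1 at −0.35, *Rarg* probes 1 and 4 at −0.02 and −0.89, *Rxrg* at −0.35, and *Hoxa5* and *Hoxb5* at −0.25. With these set to 1 median, *Aldh1a2* was at 0.05, *Rarb* probe 2 at 0.16, and *Rarg* probes 2 and 4 at 0.05 and −0.28. *Cyp26b1* was at −0.01 without background correction, −0.07 with the local background, −0.02 with quantile normalization and −0.08 with the replicate block, which put *Cyp26a1* at 0.06 and *Rarg* probe 4 at −0.24. *Rarb* probe 2 was at 0.01 with the local background. *Rarg* probe 4 was at −0.90 with outlier spots kept, 0 with the random block and −0.20 with the 75th percentile. Leaving out 1 array in turn, *Aldh1a2* ranged from −0.17 to 0.09, *Cyp26a1* from −0.15 to 0.14, *Cyp26b1* from −0.08 to 0.17, and *Rarg* probes 1 and 4 from −0.30 to 0.52 and −0.31 to 0.18.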
